A study of Myotis pilosus with 4 samples.

Results

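miR-92a-3p and miR-92b-3p are a pair of closely related miRNAs, and their levels and the balance between them were followed in the brain and in white adipose tissue from the abdomen (WAT) of the bat Myotis ricketti, named Myotis pilosus in the sample labels. They are 2 of the mature miRNAs that the study lists, beside 194 others, and they were chosen by name and counted by their listed sequences. Small RNA was sequenced as 4 Solexa libraries from these bats: hibernating brain (HB), active brain (AB), hibernating WAT (HA) and active WAT (AA), where the labels call the active state aroused. Each library was 1 pool of RNA from 3 wild-caught bats, and the same bats gave brain and WAT. The hibernating bats were taken in deep torpor in early spring and the active bats at normal body temperature in autumn, so state, season and sampling date cannot be told apart. With 1 library per group no difference between groups has a replicate check, and no p-value is given. All intervals are exact 95% intervals of the counting error alone, because reads copied by PCR are not independent molecules and the spread between bats is hidden in the pools.

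miRNAs are short RNAs that guide the silencing complex to messenger RNAs, mainly through the seed, bases 2 to 8 of the mature strand. miR-92a is the last miRNA of the miR-17-92 cluster, a Myc-activated group that promotes cell division, and it is also known for restraining vessel growth in endothelial cells. miR-92b comes from a gene of its own and is best known from neural stem and progenitor cells. Both belong to the miR-25 family, whose members share 1 seed and are therefore predicted to recognize largely the same targets. The study lists 2 hairpins for miR-92a-3p, whose mature strand is identical, so that the tags cannot say which hairpin they came from, and 1 hairpin for miR-92b-3p. One of the hairpins of miR-92a lies next to that of miR-363 in the hairpin table, and all of them are annotated there as intergenic.

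The listed mature sequences are shown because the whole comparison rests on a single base, with the seed in capitals:
miR-92a-3p: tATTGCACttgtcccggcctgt
miR-92b-3p: tATTGCACtcgtcccggcct
Over the 20 nt that both cover, the sequences had 1 difference, T10C, counted from 1 at the 5′ end and written with the base of miR-92a-3p first. The listed sequence of miR-92a-3p is 22 nt long and that of miR-92b-3p is 20 nt long, so an exact match counts the pair at unequal lengths. Tags that began with the first 18 nt of a sequence were therefore counted as well. No tag fitted both miRNAs, by the first 18 nt or by bases 2 to 17. Tags with A or G at base 10, which belong to neither, had only 17 and 7 reads over the 4 libraries, against 48943 reads with T and 37896 with C.

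The libraries held 10007650 to 12159756 clean reads, and levels are given as CPM, the count in 1000000 clean reads. The tissue labels were checked with lists of known markers. The 5 neuronal and glial miRNAs miR-124a-3p, miR-124b-3p, miR-9-3p, miR-129-3p and miR-219-5p summed to 40502 CPM in HB and 53013 in AB, whereas the sums were 130.3 in HA and 212 in AA. Only in HA was 1 of them at 0. The 3 stromal and vascular markers summed to 527 and 805 CPM in HB and AB, and to 13586 and 40201 in HA and AA. The 3 muscle markers were at 17409 and 18253 CPM in HA and AA, and at 1948 and 1605 in HB and AB. The part of these other cell types in the results was not tested.

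By the listed tags, miR-92b-3p was the brain member and miR-92a-3p the WAT member of the pair. miR-92a-3p had 175 reads in HB and 363 in AB, then 767 in HA against 1767 in AA. miR-92b-3p had 3948 reads in HB and 4929 in AB, then 127 in HA against 37 in AA. Thus each miRNA had both libraries of its own tissue above both of the other tissue, and the order of the tissues was opposite.

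As CPM, the level of miR-92a-3p was 14.4 in HB (95% counting interval 12.3 to 16.7) and 36.3 in AB (32.6 to 40.2), then 66.5 in HA (61.8 to 71.3) against 154 in AA (147 to 162). That of miR-92b-3p was 325 in HB (315 to 335) and 493 in AB (479 to 506), then 11.0 in HA (9.17 to 13.1) against 3.24 in AA (2.28 to 4.46). No neighbouring levels of either miRNA overlapped in their counting intervals.

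When all tags with the first 18 nt were counted, the levels were much higher for both, and the order of the libraries did not change. miR-92a-3p had 4664 reads in HB and 7331 in AB, then 15009 in HA against 21939 in AA, or 384, 733, 1300.3 and 1918 CPM. miR-92b-3p had 14003 reads in HB and 23482 in AB, then 268 in HA against 143 in AA, or 1152, 2346, 23.2 and 12.5 CPM. Together, the pair took 1535 CPM in HB and 3079 in AB, then 1324 in HA against 1931 in AA, so that in each tissue the hibernating library was lower per clean read.

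**Figure D1:**
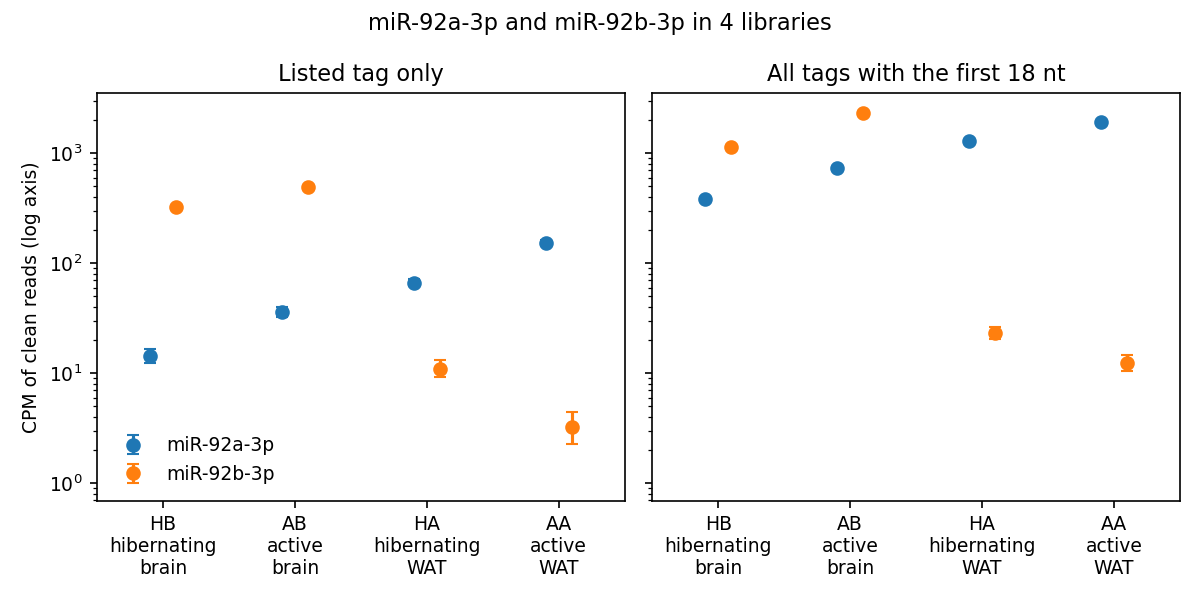
CPM of clean reads (log axis) of miR-92a-3p (blue) and miR-92b-3p (orange) in the 4 libraries, for the listed tag (left) and for all tags with the first 18 nt (right), with exact 95% counting intervals as bars. miR-92b-3p lies above miR-92a-3p in both brain libraries and below it in both WAT libraries, as in AB with 2346 against 733 and in AA with 12.5 against 1918 CPM on the right.

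The balance of the pair is taken within a library and needs no scaling between libraries. By the listed tags, miR-92a-3p made up 4.24% of the reads of both in HB (3.65 to 4.91%) and 6.86% in AB (6.19 to 7.57%), then 85.8% in HA (83.3 to 88.0%) against 97.9% in AA (97.2 to 98.6%). That is 22.6 reads of miR-92b-3p per read of miR-92a-3p in HB and 13.6 in AB, and 6.04 reads of miR-92a-3p per read of miR-92b-3p in HA against 47.8 in AA. By the listed tags, the pair thus exchanged ranks between the tissues in both states.

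By the first 18 nt, the share of miR-92a-3p was 25% in HB (24.4 to 25.6%) and 23.8% in AB (23.3 to 24.3%), then 98.2% in HA (98.0 to 98.4%) against 99.4% in AA (99.2 to 99.5%). The brain therefore had about 3.0 (HB) and 3.20 (AB) reads of miR-92b-3p per read of miR-92a-3p, far fewer than by the listed tags. At equal length the picture depended on the length itself. Among tags of exactly 20 nt, miR-92a-3p made up 48.2% in HB and 54.8% in AB, and among tags of exactly 22 nt 7.70% and 7.17%. At 20 nt miR-92a-3p therefore led in AB as well, so that the ranks were not exchanged between the tissues in the active state. In WAT it made up 98.9% (HA) and 99.8% (AA) at 20 nt, and 96.9% and 98.4% at 22 nt.

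The difference in balance between tissues was large under every way of counting. The log2 odds of miR-92a-3p to miR-92b-3p in AB over AA were -9.34 by the listed tags (-9.87 to -8.84) and -8.94 by the first 18 nt (-9.19 to -8.70). In HB over HA they were -7.09 (-7.45 to -6.73) and -7.39 (-7.58 to -7.21).

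The difference in balance between states was smaller, and its direction in brain followed the tags that were counted. In HB over AB the log2 odds were -0.73 by the listed tags (-1.01 to -0.46), that is, less miR-92a-3p in hibernation. They were 0.09 by the first 18 nt (0.03 to 0.15), -0.38 at 20 nt (-0.46 to -0.30) and 0.11 at 22 nt (-0.15 to 0.37). In HA over AA they were -2.98 by the listed tags (-3.57 to -2.43), -1.45 by the first 18 nt (-1.76 to -1.15), -2.37 at 20 nt (-2.94 to -1.84) and -0.94 at 22 nt (-1.70 to -0.17). Tags over 20 nt with the base 21 that is commonest for each miRNA over the 4 libraries together were also counted, after the values were seen. By these tags the log2 odds were 0.29 in brain (0.12 to 0.46) and 0.28 in WAT (-0.37 to 0.94).

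**Figure D2:**
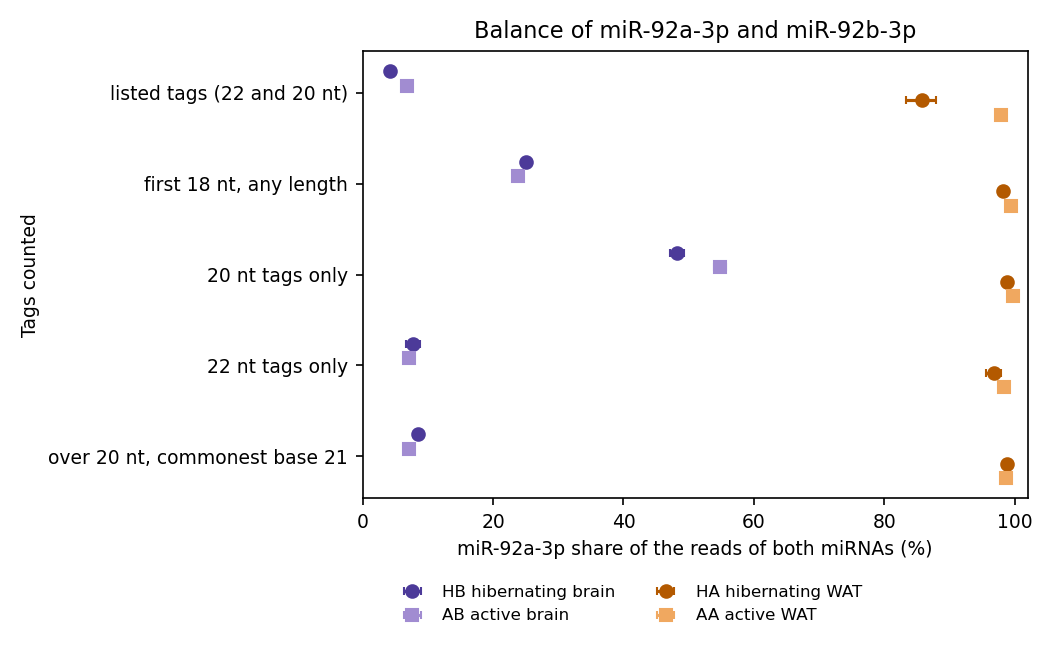
Share of miR-92a-3p in the reads of both miRNAs (horizontal axis, %) in the 4 libraries under 5 ways to count tags (vertical axis), with exact 95% binomial intervals as bars. The WAT libraries lie between 85.8 and 99.8%, whereas the brain libraries range from 4.24 to 54.8% and the order of HB and AB changes with the tags counted.

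The tags of the pair differed in length, so that each way of counting took up a different part of them. The forms that differ are shown, again with the seed in capitals:
miR-92a-3p, most abundant form: tATTGCACttgtcccggcct
miR-92a-3p, 1 base shorter than listed: tATTGCACttgtcccggcctg
miR-92a-3p, listed form with 1 more base: tATTGCACttgtcccggcctgta
miR-92b-3p, 1 base shorter than listed: tATTGCACtcgtcccggcc
miR-92b-3p, listed form with 1 more base: tATTGCACtcgtcccggcctc

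The most abundant form of miR-92a-3p was not the listed one but the 20 nt form, which ends at the same base as the listed miR-92b-3p. It had 3828 reads in HB and 6108 in AB, then 11274 in HA against 16504 in AA, which is 82.1%, 83.3%, 75.1% and 75.2% of the tags with the first 18 nt. The listed 22 nt form held 3.75% in HB (3.23 to 4.34%) and 4.95% in AB (4.47 to 5.47%), then 5.11% in HA (4.76 to 5.47%) against 8.05% in AA (7.70 to 8.42%). Over the 4 libraries, the listed form thus held 3072 of 48943 reads, or 6.28%.

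miR-92b-3p had no such dominant form. Its listed 20 nt form was the most abundant tag in each library, with 28.2% of the tags with the first 18 nt in HB (27.4 to 28.9%) and 21% in AB (20.5 to 21.5%), then 47.4% in HA (41.3 to 53.6%) against 25.9% in AA (18.9 to 33.9%). HA stood apart from the other libraries here. The form with 1 more base had 1960 reads in HB and 3617 in AB, then 5 in HA against 13 in AA, and the form 1 base shorter had 1759, 3224, 11 and 8 reads. In brain, tags of 21 to 22 nt were the largest class of miR-92b-3p, with 38.8% in HB and 43.2% in AB, against 8.55% and 10.1% for miR-92a-3p. The mean length was 20.2 nt in both brain libraries for miR-92a-3p, and 21.1 nt in AB for miR-92b-3p.

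Long tags of 25 to 30 nt made up 3.46% of miR-92a-3p in HA (3.18 to 3.77%), and 0.579% in HB, 0.600% in AB and 0.579% in AA. Within this class, tags of exactly 25 nt made up 1.05% of miR-92a-3p in HA. All clean reads over 25 nt, a limit that leaves out 25 nt itself, made up 6.85% of HA and 0.505 to 0.937% of the other libraries. The part of this excess of long reads in the values of HA was not tested.

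**Figure D3:**
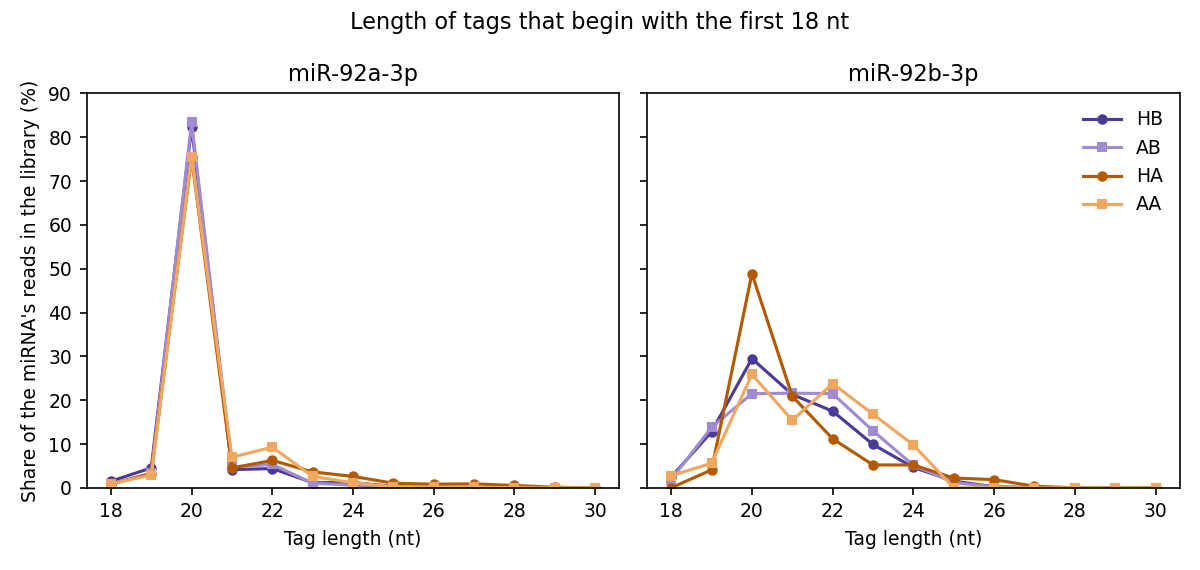
Share of the reads of miR-92a-3p (left) and miR-92b-3p (right) by tag length in nt, for tags with the first 18 nt, with 1 line per library. miR-92a-3p has a single peak at 20 nt of 75.4 to 83.4%, whereas miR-92b-3p is spread over 19 to 24 nt, with 48.9% at 20 nt in HA and 21.5 to 29.5% in the other libraries.

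Beyond base 20, the commonest base of the tags also differed between the pair. Of the tags of miR-92a-3p over 20 nt, 92.3 to 92.9% had G at base 21 in each library. Of those of miR-92b-3p, 69.8% had C at base 21 in HB, 75.9% in AB and 69.4% in AA, but only 28.0% in HA. In HA the commonest base 21 of miR-92b-3p was A, with 34.7%. A base other than the G of miR-92a-3p or the C of miR-92b-3p was more frequent on miR-92b-3p. In HB, 30.2% of its tags over 20 nt (29.2 to 31.3%) had a base 21 other than C, mostly A with 20.2% and T with 9.97%, against 7.16% other than G on miR-92a-3p (5.11 to 9.69%). In AB these shares were 24.1% and 7.10%.

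In HA, 29 of the 118 reads of miR-92b-3p over 20 nt (24.6%) had G at base 21, as miR-92a-3p has, against 4 of 85 in AA (4.71%), 8 of 7599 in HB and 16 of 14539 in AB. Among reads with G at base 21, C stood at base 10 in 1.02% in HA (0.686 to 1.47%) and in 0.0964% in AA (0.0263 to 0.247%). In brain this share was 1.60% in HB (0.692 to 3.12%) and 1.88% in AB (1.08 to 3.03%). Counted only by tags over 20 nt with C at base 21, its commonest over the 4 libraries together, miR-92b-3p had 33 reads in HA against 59 in AA. As point values, the order of these libraries was then the opposite of that by the listed tag. The log2 ratio of HA over AA by this count, given below, was -0.60 (-1.26 to 0.04), which this depth cannot tell from 0. This count left out 85 of the 118 reads over 20 nt in HA, where A led, and 26 of 85 in AA. A change of T to C at the other 5 T bases among the first 18 of miR-92a-3p had 8 to 17 reads in HA and 20 to 39 in AA, beside the 268 and 143 reads with C at base 10. In brain, a change of C to T at the other 6 C bases of miR-92b-3p had 9 to 50 reads in HB and 13 to 70 in AB, beside 4664 and 7331 reads with T at base 10. The part of misread bases in the level of miR-92b-3p in WAT was not tested.

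The 5′ ends of both miRNAs, which set the seed, hardly varied. Of the tags with bases 2 to 17 of miR-92a-3p, 96.2 to 98.4% began at the listed base in the 4 libraries, and 1.44 to 3.21% began 1 base later. For miR-92b-3p, 98.2 to 99.6% began at the listed base.

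Ratios between libraries were scaled by TMM over all listed miRNAs, and a miRNA with 10 or more reads in the pair of libraries was called where its ratio was at least 1 either way on the log2 scale. Some listed miRNAs share their first 18 nt, such as miR-124a-3p and miR-124b-3p. By the first 18 nt these had the same count and each was entered, so the shares called and the scaling by that count hold repeats. By the listed tags, miR-92a-3p was called in brain, with a log2 ratio of HB over AB of -1.04 (-1.31 to -0.78), and miR-92b-3p was not, with -0.31 (-0.37 to -0.25). Of all 153 miRNAs tested, 40.5% were called either way and 17.6% were called lower, and nothing is read from a count of 1 of 2 members beside these shares. By the first 18 nt the values were -0.91 (-0.97 to -0.86) and -1.01 (-1.04 to -0.98), and miR-92b-3p was called in place of miR-92a-3p, beside 27.8% called either way and 15.9% called lower. Both were therefore below 0 in hibernating brain by either count, and 3 of the 4 values lay close to the limit for a call. The median over all tested miRNAs was 0.01 by the listed tags and -0.03 by the first 18 nt.

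In WAT, with scaling over all listed miRNAs, the ratios of the pair had opposite signs by both counts. The log2 ratio of HA over AA of miR-92a-3p was -0.87 by the listed tags (-0.99 to -0.74) and -0.31 by the first 18 nt (-0.34 to -0.28). With TMM over the conserved miRNAs alone, the ratio of miR-92a-3p by the listed tags was -0.09 (-0.21 to 0.03), which cannot be told from 0. That of miR-92b-3p with all listed miRNAs was 2.12 (1.58 to 2.68) and 1.15 (0.85 to 1.45), beside 49.3% of 142 miRNAs called either way and 20.4% called higher by the listed tags, and 50.0% either way and 34 of 162 (21%) higher by the first 18 nt. The median over all tested miRNAs was -0.29 and 0.08. At 22 nt, with 30 reads in HA against 34 in AA, the ratio of miR-92b-3p was 0.06 (-0.70 to 0.81), which this depth cannot tell from 0, and with C at base 21 it was -0.60 (-1.26 to 0.04). For miR-92a-3p it stayed below 0 with both, at -0.88 and -0.32.

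**Figure D4:**
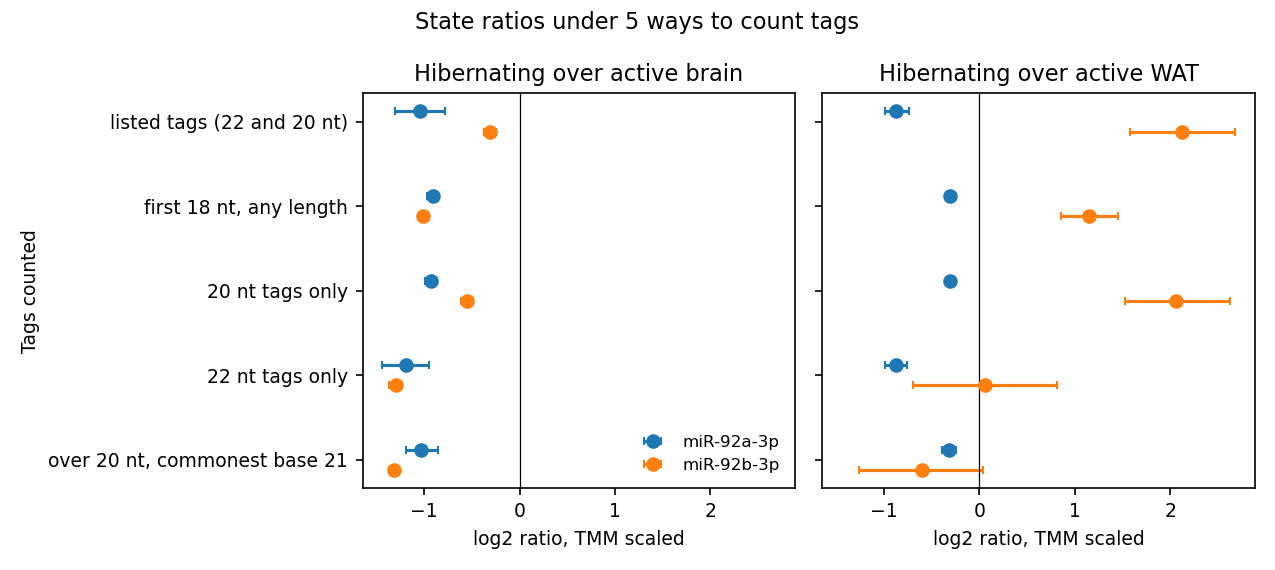
Log2 ratios of hibernating over active brain (left) and WAT (right) of miR-92a-3p (blue) and miR-92b-3p (orange) under 5 ways to count tags, scaled by TMM, with exact 95% counting intervals as bars and a line at 0. In brain both lie below 0 throughout, and in WAT miR-92b-3p ranges from 2.12 by the listed tag to -0.60 for tags over 20 nt with C at base 21.

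Between tissues, the log2 ratio of AB over AA was -2.18 for miR-92a-3p (-2.35 to -2.02) and 7.16 for miR-92b-3p (6.69 to 7.67) by the listed tags, and -1.52 and 7.42 by the first 18 nt. That of HB over HA was -2.30 (-2.55 to -2.06) and 4.79 (4.53 to 5.05), and -1.86 and 5.53 by the first 18 nt. Calls were the rule between tissues. By the listed tags 74.8% of 159 miRNAs were called in the active state, 38.4% higher in brain and 36.5% lower, and 76.1% of 159 in the hibernating state, 40.9% higher and 35.2% lower. By the first 18 nt 72.0% were called in the active state, 37.1% higher and 34.9% lower, and 77.5% in the hibernating state, 38.8% in each direction.

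**Figure D5:**
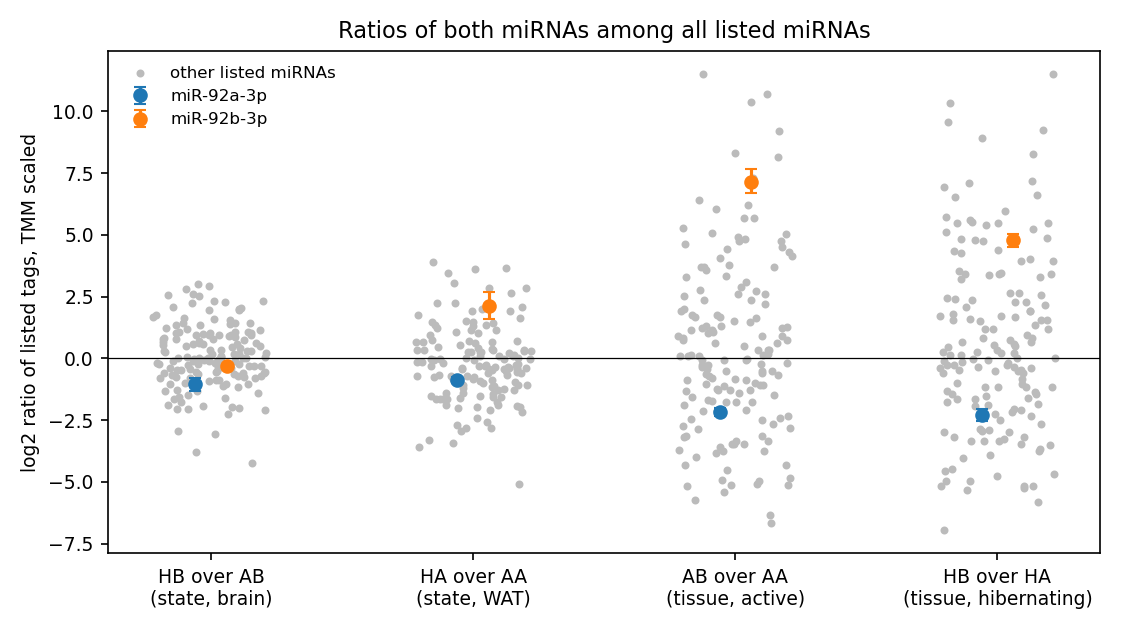
Log2 ratios of listed tags, scaled by TMM, in the 4 comparisons, for miR-92a-3p (blue), miR-92b-3p (orange) and the other listed miRNAs with 10 or more reads (grey), with exact 95% counting intervals for the pair. In the comparisons of tissues miR-92b-3p lies at 7.16 and 4.79 and miR-92a-3p at -2.18 and -2.30, on opposite sides of 0.

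Markers of blood cells were given beside these values because miR-92a is abundant in blood. The 4 markers miR-142-5p, miR-142-3p, miR-486-5p and miR-486-3p summed to 28.1 CPM in HB and 62.4 in AB, then 253 in HA against 268 in AA, and none was at 0. The sum was higher in WAT than in brain, as miR-92a-3p was, but the markers differed between states. In HA against AA, miR-142-5p had 958 against 895 reads and miR-486-5p 1795 against 1763, whereas miR-486-3p had 151 and 365 and miR-142-3p 18 and 37. In brain, miR-142-5p was higher in HB, with 136 reads against 59 in AB, whereas miR-486-5p had 149 and 326. Their part in the level of miR-92a-3p was not tested. In pooled tissue, fewer cells of a type and less of the miRNA per cell cannot be told apart.

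The same seed was carried by other tags, which are shown because they share the predicted targets of the pair:
miR-363-3p: aATTGCACggtatccatct
1st unlisted group, first 18 nt: cATTGCACttgtctcggt
2nd unlisted group, first 18 nt: cATTGCACttgtctcggg
3rd unlisted group, first 18 nt: tATTGCACttgttccggc

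All tags with ATTGCAC at bases 2 to 8 summed to 22609 reads in HB and 35286 in AB, then 27492 in HA against 41962 in AA. miR-92b-3p took 61.9% of them in HB and 66.5% in AB, whereas in WAT it took 0.975% (HA) and 0.341% (AA). miR-92a-3p took 20.6% and 20.8% in brain, and 54.6% and 52.3% in WAT. The 1st unlisted group, which differs from miR-92a-3p by T1C, C14T and C18T, took 12.6% in HB and 8.27% in AB, then 39.1% in HA against 43.3% in AA. In WAT the seed was thus borne mainly by miR-92a-3p and this group, and in brain mainly by miR-92b-3p. The 2nd group differs from the 1st by T18G and had 432 reads in all, and the 3rd differs from miR-92a-3p by C13T and had 206. Each thus lies 1 base from a far more abundant sequence. Of the tags in listed or changed form, C13T made up 0.257 to 0.629% on miR-92a-3p over the libraries. On miR-92b-3p it made up 0.356% in HB and 0.297% in AB. The part of misread bases in these groups was not tested.

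miR-363-3p, the other listed miRNA with this seed and the genomic neighbour of a miR-92a hairpin, had 180 reads in HB and 210 in AB, then 134 in HA against 66 in AA by its listed tag. As point values, its order over the libraries was that of miR-92b-3p and not that of miR-92a-3p. Its log2 ratio of HB over HA was 0.26 by the listed tag (-0.07 to 0.59), which this depth cannot tell from 0. By the first 18 nt it was 0.27 (0.06 to 0.48). Its ratio of AB over AA was 1.77 by the listed tag (1.36 to 2.19). The same ratios of miR-92b-3p were 4.79 and 7.16 by the listed tag. For miR-363-3p, the log2 ratio of HB over AB was -0.21 by the listed tag (-0.51 to 0.08), which this depth cannot tell from 0, and -0.76 by the first 18 nt (-0.94 to -0.58). That of HA over AA was 1.36 (0.92 to 1.81) by the listed tag and 0.91 (0.66 to 1.17) by the first 18 nt.

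The listed miRNAs whose pattern over the 4 libraries lay nearest to each member were sought among 130 with 100 or more reads, by the Euclidean distance of centred log2 CPM. With 4 points, of which each is 1 library, this is a description. Nearest to miR-92a-3p were miR-28-3p (distance 0.51), with 304, 753, 2141 and 3436 reads in the order HB, AB, HA, AA, followed by miR-6119-3p (0.59) and the bat-specific miRNA tgatcagccgttgcctctctct (0.77), both with under 100 reads in each library. Nearest to miR-92b-3p were miR-154-3p (1.25), with 6977, 7011, 117 and 115 reads, the miRNA listed as miR-7c-5p (1.63) and miR-135-3p (1.73). miR-92a-3p and miR-92b-3p were 8.48 apart, and miR-92a-3p was the 100th nearest to miR-92b-3p.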

How the data were processed

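Small RNA of whole brain and WAT was sequenced as 4 libraries of pooled RNA. After trimming and quality filtering by the authors, each library was deposited as a list of distinct tags of 18 nt or more with the raw count of each, the only unit used here. The mapping to the Myotis lucifugus genome and the hairpin criteria came after that step, so the tags include sequencing errors and no genome position.

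Names and mature sequences were read from the list of 119 conserved and 77 bat-specific miRNAs in the supplement of the study. Each miRNA was counted by its exact listed sequence, and then by all tags with its first 18 nt. Shares of tags are shares of their reads. Shares carry exact Clopper-Pearson intervals, levels exact Poisson intervals, and log2 odds an exact conditional interval. Ratios were scaled by TMM over all listed miRNAs of a pair of libraries (edgeR 4.0.16, R 4.3.3). A 0 was set to a floor of 3 reads. Values at 20 nt, at 22 nt and by base 21 were scaled by TMM over the counts by the first 18 nt. The edgeR exact test named by the study was not run, since 1 library per group gives no spread. Alternatives were scaling by clean reads, by the median of ratios (DESeq2 1.42.0) and by TMM over the conserved miRNAs, other tags and other minimum counts. The tags were counted in Python 3.11.15 with NumPy 2.4.6, intervals were taken from SciPy 1.17.1 and plots from Matplotlib 3.10.9. The state ratios and the odds in HB over AB, both by the listed tags, were run on simulated counts with counting error alone. That run cannot speak to PCR copies or to the spread between bats.

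The named miRNAs are the pair, other listed miRNAs and the 3 most abundant unlisted groups of tags with the same seed, the marker lists, and the 3 miRNAs nearest to each member in pattern (with 0.5 added to each count). The members and lists were chosen with earlier results of these data known.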

Additional observations from a re-analysis of the deposited data

Results flagged for a closer look

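The log2 ratios of hibernating over active by the listed tags had, as point values, opposite signs in the tissues for miR-92b-3p, at -0.31 in brain and 2.12 in WAT, and for miR-363-3p, at -0.21 in brain and 1.36 in WAT. The interval of the brain value of miR-363-3p, -0.51 to 0.08, includes 0, so its sign by the listed tag is not settled. With 1 library per group, this difference between tissues was not tested.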

How the results depend on the processing

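No paired analysis was possible because each group is 1 library. The state ratios rest on single libraries, 127 and 37 reads of miR-92b-3p in WAT set the precision there, and values with exactly 20 or 22 nt in the ratios and all values with the commonest base 21 were chosen after seeing the data. Against TMM, scaling by clean reads shifted every log2 ratio by -0.29 in HB over AB and -0.35 in HA over AA, and TMM over the conserved miRNAs by 0.13 and 0.78. Where a value moved, the cause was not tested beyond the tags that each setting counts.

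The log2 odds of miR-92a-3p to miR-92b-3p in HB over AB turned from -0.73 to 0.09 with the first 18 nt, 0.11 with bases 2 to 17, 0.11 at 22 nt and 0.29 with the commonest base 21, and were -0.38 at 20 nt. In HA over AA they moved from -2.98 to -1.45 with the first 18 nt, -1.43 with bases 2 to 17, -2.37 at 20 nt and -0.94 at 22 nt, and turned to 0.28 (-0.37 to 0.94) with the commonest base 21. In AB over AA they were -8.53 at 20 nt, and in HB over HA -6.53 at 20 nt, -8.55 at 22 nt and -9.84 with the commonest base 21.

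For miR-92a-3p, the ratio of HB over AB was -1.33 with clean reads. In HA over AA it was -0.31 with the first 18 nt, -0.40 with bases 2 to 17, -1.22 with clean reads, -0.62 with the median of ratios, -0.09 (-0.21 to 0.03) with TMM over the conserved miRNAs, -0.31 at 20 nt and -0.32 with the commonest base 21. In AB over AA it was -1.52 with the first 18 nt, -1.49 with bases 2 to 17, -2.00 with the median of ratios and -1.38 at 20 nt, and in HB over HA -1.86, -2.03 with bases 2 to 17, -1.73 at 20 nt and -2.69 with the commonest base 21.

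For miR-92b-3p, the ratio of HB over AB was -1.01 with the first 18 nt, -0.92 with bases 2 to 17, -0.60 with clean reads, -0.18 with TMM over the conserved miRNAs, -0.55 at 20 nt, -1.30 at 22 nt and -1.32 with the commonest base 21. In HA over AA it was 1.15 with the first 18 nt, 1.03 with bases 2 to 17, 2.89 with TMM over the conserved miRNAs and 0.06 at 22 nt. With the commonest base 21 it turned to -0.60 (-1.26 to 0.04). In HB over HA it was 5.53, 5.36 with bases 2 to 17, 6.18 at 22 nt and 7.15 with the commonest base 21.

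With a minimum of 100 reads, the miRNAs called by size fell to 32 in HB over AB, 38 in HA over AA, 74 in AB over AA and 78 in HB over HA, since fewer miRNAs were tested.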

Other observations

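Tags of miR-92a-3p with G in place of A in the seed took a larger share in both brain libraries than in both WAT libraries, a pattern singled out after the values were seen. A2G was found in 24 reads in HB and 37 in AB, which is 0.512% (0.328 to 0.761%) and 0.502% (0.354 to 0.692%) of the tags with the first 18 nt in their listed or this changed form, and in 5 reads in HA and 6 in AA, which is 0.0333% (0.0108 to 0.0777%) and 0.0273% (0.0100 to 0.0595%). A7G, at the other A among these 18 bases, was found in 0.278% in HB (0.148 to 0.475%) and 0.245% in AB (0.145 to 0.387%). In WAT it was found in 0.0865% in HA (0.0461 to 0.148%) and 0.100% in AA (0.0628 to 0.152%). These intervals of A7G overlapped between brain and WAT. On miR-92b-3p in the same brain libraries, A2G made up 0.0286% in HB and 0.0426% in AB, and A7G 0.121% and 0.0766%. The order of the tissues was not limited to G, nor to changes of A. G5A on miR-92a-3p had 0.0643% in HB and 0.0682% in AB, and 0.0200% in HA against 0.0365% in AA. It rested on 3 to 8 reads per library, with intervals that overlapped between brain and WAT. A2C on miR-92a-3p had 0.193% in HB and 0.191% in AB, and 0.0799% in HA against 0.105% in AA, with counting intervals that overlapped between brain and WAT. A7C on miR-92a-3p had 0.448% in HB and 0.326% in AB, then 0.477% in HA against 0.657% in AA, without both brain libraries above both WAT libraries.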
